A study of Mus musculus with 6 samples.

Results

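p53, encoded by Trp53, is the transcription factor that stress and DNA damage switch on, and 10 of the 55536 genes counted in these libraries were taken up here for their place in its pathway. They are Trp53, the regulators Mdm2 and Mdm4, and the target genes Trp53inp1, Aen, Zmat3, Phlda3, Plk2, Btg2 and Perp. They were chosen by name from what is known of the pathway, without the BCL2 family. These genes and the further lists below were chosen with earlier results of these data known. All 10 were found in the annotation, and 9 of them had enough reads to be tested. The libraries come from CAD, a mouse line of catecholamine-making neurons (male, central nervous system), from a C57BL/6 x DBA/2 background and with simian virus 40 as the labelled transformant in both groups. Undifferentiated cells grew in 8% serum and were labelled control. Differentiated cells had 5 days of 100 µM dexamethasone, a synthetic glucocorticoid, in 1% serum, so steroid and serum differed together and their parts cannot be told apart. Each group had 3 libraries, described as independent samples with no word on separate cultures, so p-values measure the spread between these libraries, which may be technical. One established line of fewer than 10 passages was used throughout, and no second line was analysed here.

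In resting cells p53 is kept scarce because Mdm2 marks it for destruction and Mdm4 (also called MdmX) covers its activating domain. Mdm2 is itself a p53 target, which closes a feedback loop, and other targets stop the cell cycle, repair DNA, limit growth signals or start cell death. The large T antigen of simian virus 40 is known to bind p53 and block its action. Neither p53 protein nor T antigen was measured here, since the values are reads on mouse genes. Whether these cells make T antigen is therefore not known from these data.

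Library totals ran from 6411105 to 8757992 reads. Dexamethasone-induced genes fixed as a check, Fkbp5, Tsc22d3 and Per1, rose in 3 of 3 cases, and the 6 cell division markers all fell, from a summed 2696 to 2806 CPM per undifferentiated library to 113 to 130 CPM per differentiated library. All 10 catecholaminergic neuron markers had reads, with 2684 to 2720 CPM before and 10632 to 12718 CPM after differentiation. Chgb carried the rise of that sum (1026 and 9981 mean CPM). Of the 10 genes 5 were called higher and 4 lower (Dbh, Gata2, Phox2a and Tubb3), where 40.3% and 38.6% of all tested genes were. Dbh fell 13.2-fold, and Th rose 2.09-fold at a low level (4.59 and 9.50 mean CPM). The 5 fibroblast markers summed to 10.0 to 13.7 and 18.3 to 20.2 CPM, the 5 glial markers to 3.95 to 5.09 and 3.27 to 5.22 CPM, and the 7 endothelial, microglial and blood markers to at most 0.509 and 1.85 CPM, with 1 glial marker (Mog) and 4 of the last list (Cldn5, Ptprc, Cx3cr1 and Hbb-bs) at 0 reads. Dcn carried the rise of the fibroblast sum (8.28 and 17.6 mean CPM), while Col1a1, which was not called, was at 1.99 and 1.27 mean CPM, and Col1a2, at 0.769 and 0.268, and Lum, at 0.419 and 0.172, were too low to be tested. The part of these shifts in the values below was not tested. In bulk RNA, fewer cells that express a gene and less RNA per cell cannot be told apart.

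RefSeq promoter windows of GRCm38.p6, from 250 bases before to 50 after an annotated start, were found for 7 of the 10 genes. Those of Trp53inp1, Zmat3 and Perp were not among them. The 4 sequences printed first belong to genes of the set that moved in opposite directions: Btg2 and Plk2 were higher in differentiated cells, Aen and Mdm2 were lower. Capitals mark TGACGTCA, the cAMP response element, in Btg2 and Plk2, and an exact p53 half-site in Mdm2 and Aen. The fifth belongs to Cdkn1a, the best known p53 target, where capitals mark a full p53 site, here 2 half-sites in a row with 1 letter off the consensus, beside an upstream start of the gene.
Btg2, minus strand, chr1:134079106-134079405: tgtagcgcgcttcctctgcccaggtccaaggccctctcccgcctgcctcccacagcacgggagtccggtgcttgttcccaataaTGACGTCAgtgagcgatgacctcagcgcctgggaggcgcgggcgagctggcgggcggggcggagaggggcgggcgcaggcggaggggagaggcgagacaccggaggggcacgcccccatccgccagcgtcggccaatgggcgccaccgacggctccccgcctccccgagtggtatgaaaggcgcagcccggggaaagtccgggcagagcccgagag
Plk2, plus strand, chr13:110394794-110395093: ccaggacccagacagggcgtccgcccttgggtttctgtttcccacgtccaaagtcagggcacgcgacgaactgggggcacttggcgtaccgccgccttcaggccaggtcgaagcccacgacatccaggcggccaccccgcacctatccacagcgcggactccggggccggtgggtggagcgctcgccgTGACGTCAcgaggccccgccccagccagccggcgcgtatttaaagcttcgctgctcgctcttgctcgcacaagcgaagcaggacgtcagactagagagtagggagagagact
Mdm2, minus strand, chr10:117710709-117711008: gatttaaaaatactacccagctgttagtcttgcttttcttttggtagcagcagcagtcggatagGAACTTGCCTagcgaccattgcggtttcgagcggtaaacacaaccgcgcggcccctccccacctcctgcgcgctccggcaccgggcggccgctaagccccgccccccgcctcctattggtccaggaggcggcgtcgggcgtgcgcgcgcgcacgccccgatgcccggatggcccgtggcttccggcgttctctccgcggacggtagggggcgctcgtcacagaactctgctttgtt
Aen, plus strand, chr7:78895808-78896107: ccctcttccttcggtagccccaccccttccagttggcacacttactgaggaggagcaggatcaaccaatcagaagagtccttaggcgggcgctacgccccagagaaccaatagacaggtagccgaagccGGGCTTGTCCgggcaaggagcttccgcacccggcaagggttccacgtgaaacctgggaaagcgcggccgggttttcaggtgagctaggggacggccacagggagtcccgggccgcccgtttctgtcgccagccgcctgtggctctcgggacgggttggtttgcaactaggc
Cdkn1a, plus strand, chr17:29090729-29091028: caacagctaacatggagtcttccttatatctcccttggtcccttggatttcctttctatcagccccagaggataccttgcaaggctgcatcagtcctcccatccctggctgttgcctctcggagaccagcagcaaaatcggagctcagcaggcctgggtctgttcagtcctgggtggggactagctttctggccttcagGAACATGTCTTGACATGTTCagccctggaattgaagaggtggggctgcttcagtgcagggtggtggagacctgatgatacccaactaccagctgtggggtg

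An exact p53 half-site stood in the windows of Trp53 (GGACTTGCCC), Mdm2 (GAACTTGCCT) and Aen (GGGCTTGTCC), 3 of 7 genes. That is 4 of the 9 windows of these 7 genes, beside 8.36% of all 32851 windows. Mdm4 and Aen have 2 windows each, and those of Aen overlap and hold the same half-site. A full site with up to 3 mismatches and no spacer stood in the windows of Trp53, Mdm4 and Aen. That is 4 of the 9 windows, beside 6.29% of all windows. Of these genes Mdm4 was higher and Trp53 and Aen were lower in differentiated cells. Cdkn1a, with the full site printed above, was higher. The printed genes are examples, and a tie between motif and direction was not tested. The glucocorticoid response element, searched in its 15-letter form with up to 2 mismatches, stood in none of the 7 and in 1.84% of all windows. The cAMP response element stood in Btg2 and Plk2, 2 of the 9 windows, and in 1.79% of all windows. It was searched after these sequences and the changes of the genes had been seen. All of these motifs read the same on both strands, so a search of 1 strand covers both. Half-sites can lie within full sites. A match describes letters in a window and no binding was measured. Sites outside the windows, such as those in introns, were not searched, so a marked site need not be the one that p53 uses.

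Of 12664 genes tested across the whole table with edgeR's quasi-likelihood test, 40.3% were called higher and 38.6% lower in differentiated cells (78.9% in either direction) at a Benjamini-Hochberg adjusted p under 0.05. Against that background, 5 of the 9 tested genes of the p53 set were called higher (Trp53inp1, Btg2, Plk2, Mdm4 and Zmat3), 3 lower (Trp53, Aen and Mdm2), and Phlda3 was not called. With so few genes, nothing particular to the set is read from these shares. The median log2 fold change was 0.16 over the 9 genes and 0.02 over all tested genes, and the median of its size was 0.89 against 0.61. On a test against a fold of 1.5, Trp53inp1, Btg2 and Plk2 were called higher and Trp53 and Aen lower, where 22.5% and 18.3% of all tested genes were. In 7 of the 9 genes the groups did not overlap (79.9% of all tested genes), with every differentiated library above in 4 (41.0%) and below in 3 (38.9%). The genes did not move as a unit: the fitted log2 fold changes ran from -0.97 for Aen to 5.51 for Trp53inp1. TMM scaling takes most genes as unchanged, so a small change is one of a gene's share in the mRNA of its library. With library totals alone the log2 fold change of the median gene shifts by 0.12.

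**Figure D1:**
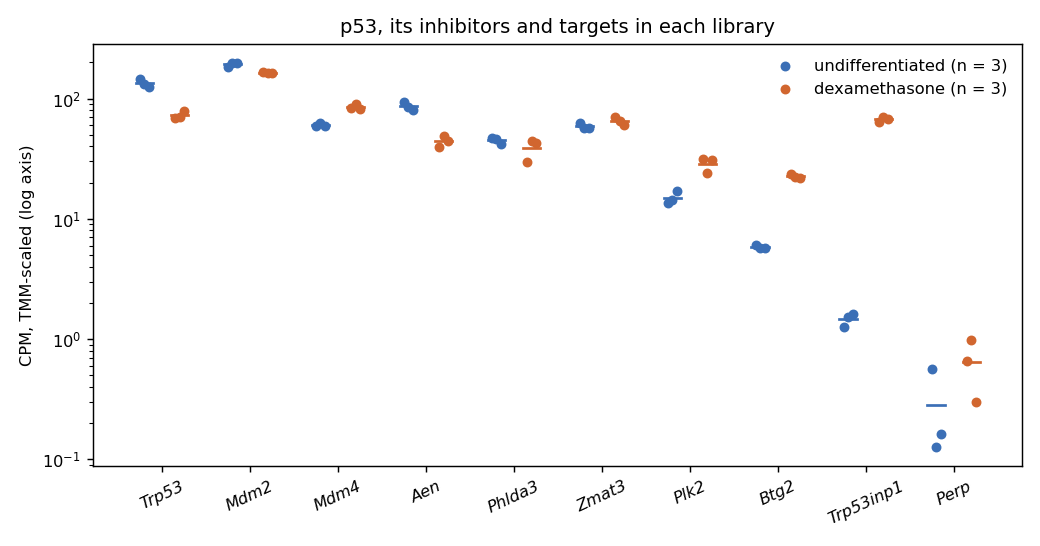
TMM-scaled CPM on a log axis for the 10 genes; each point is 1 library and each bar the mean of 3. Trp53inp1 goes from 1.27 to 1.62 CPM in undifferentiated libraries to 64.1 to 70.3 CPM in differentiated ones, while Phlda3 and Zmat3 overlap between groups.

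Trp53 itself (ENSMUSG00000059552, chr11:69580359-69591873 in GRCm38, plus strand) was lower in differentiated cells. It stood at 146, 133 and 125 CPM in undifferentiated replicates 1, 2 and 3 and at 69.2, 70.9 and 78.7 CPM in dexamethasone replicates 1, 2 and 3. Every differentiated library lay below every undifferentiated one. The mean went from 135 ± 10.4 to 72.9 ± 5.10 CPM (SD, n = 3), a 1.86-fold drop (log2 fold change -0.89 ± 0.065 SE, edgeR adjusted p = 1.05e-12). A processed pseudogene, Trp53-ps on chromosome 17, carried 198 reads over the 6 libraries against 4665 for Trp53. Reads that align to both were not counted.

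Mdm2, the ubiquitin ligase that degrades p53 (ENSMUSG00000020184, chr10:117688875-117710758, minus strand), moved far less than Trp53. It was at 185, 197 and 196 CPM in the undifferentiated and at 166, 164 and 163 CPM in the differentiated libraries. The groups did not overlap, yet the drop was only 1.17-fold (log2 fold change -0.23 ± 0.051 SE, edgeR adjusted p = 2.53e-04). With library totals alone it missed the threshold (log2 fold change -0.10, edgeR adjusted p = 0.0663).

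Mdm4, the partner that masks the activating domain of p53 (ENSMUSG00000054387, chr1:132959484-133030561, minus strand), went the other way. Its libraries stood at 59.4, 62.3 and 58.8 CPM before and at 83.0, 89.6 and 81.4 CPM after differentiation, with no overlap. The rise was 1.41-fold (log2 fold change 0.49 ± 0.065 SE, edgeR adjusted p = 1.14e-07). The pseudogene Mdm4-ps held 2 reads in all against 3397 for Mdm4.

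Ratios of reads within a library do not depend on how libraries are scaled. Mdm2 had 1.27, 1.48 and 1.57 reads per Trp53 read in undifferentiated replicates 1, 2 and 3, and 2.40, 2.31 and 2.08 in the differentiated ones. The ratio was 1.58-fold higher in differentiated cells, a difference of 0.66 in the mean log2 ratio (0.52 ± 0.159 and 1.18 ± 0.109, SD, n = 3). Against Mdm4, Mdm2 had 3.11, 3.16 and 3.34 reads per read before and 2.00, 1.83 and 2.01 after, which is 1.65-fold lower in differentiated cells (mean log2 ratio 1.68 ± 0.0527 and 0.96 ± 0.0771, SD, n = 3). In both ratios the groups did not overlap, and both differences exceeded the spread between libraries. The two-sided exact permutation p was 0.1 for each, which is the smallest that 3 libraries against 3 can give. These are read ratios, which differ from molecule ratios by the genes' lengths, so only their change between groups is compared.

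**Figure D2:**
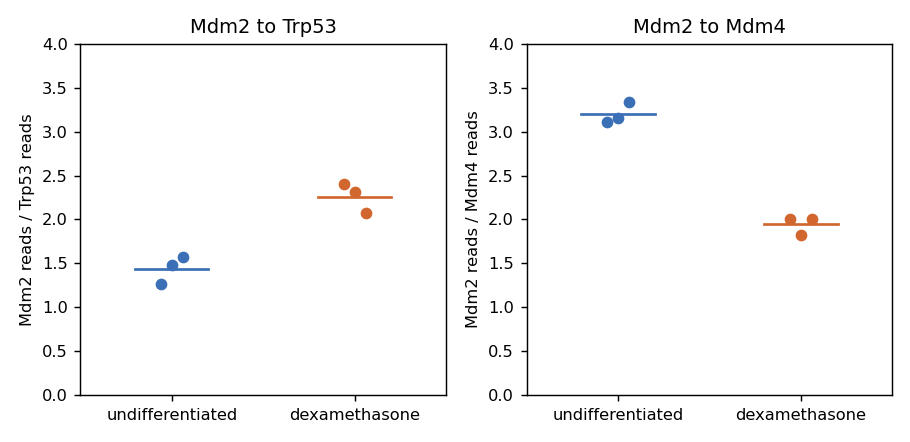
Reads of Mdm2 per read of Trp53 (left) and per read of Mdm4 (right) on linear axes that start at 0; points are libraries and bars the geometric means of 3 libraries. The first ratio is 2.08 to 2.40 in differentiated and 1.27 to 1.57 in undifferentiated libraries, and the second is 1.83 to 2.01 against 3.11 to 3.34.

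Among the targets, Trp53inp1 changed most. It encodes a stress-induced nuclear protein that binds kinases which phosphorylate p53 and that also takes part in autophagy (ENSMUSG00000028211, chr4:11156431-11174379, plus strand). Undifferentiated libraries held 9, 12 and 10 reads (1.27, 1.53 and 1.62 CPM), and differentiated libraries held 580, 646 and 458 reads (64.1, 70.3 and 68.0 CPM). The groups were far apart, with a 45.5-fold rise (log2 fold change 5.51 ± 0.140 SE, edgeR adjusted p = 6.9e-23), which placed the gene at rank 69 of 12664 from the highest rise. Trp53inp1 passed the filter on low counts only through the differentiated libraries, which adds to the count of the set called higher. Set against Trp53 in the same library, Trp53inp1 had 0.870 to 1.29 reads per 100 Trp53 reads before and 86.4 to 99.1 after differentiation.

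Btg2 and Plk2, both also known as genes that growth factors and neuronal activity switch on quickly, were higher too. Btg2, which slows cell division and promotes the shortening of mRNA tails (ENSMUSG00000020423, chr1:134075170-134079120, minus strand), stood at 6.06, 5.72 and 5.67 CPM and then at 23.8, 22.1 and 22.0 CPM. It rose 3.88-fold with no overlap (log2 fold change 1.96 ± 0.135 SE, edgeR adjusted p = 2.85e-13). Plk2, a polo-like kinase of centriole duplication and synapses (ENSMUSG00000021701, chr13:110395046-110400844, plus strand), went from 13.5, 14.2 and 17.0 CPM to 31.7, 24.0 and 30.6 CPM. Its lowest differentiated library, replicate 2, still lay above the highest undifferentiated one, and the rise was 1.93-fold (log2 fold change 0.95 ± 0.120 SE, edgeR adjusted p = 5.2e-08).

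Aen, a nuclease that takes part in cell death after p53 activation (ENSMUSG00000030609, chr7:78895854-78911209, plus strand), was the lowest of the set by fold. It stood at 94.2, 85.3 and 80.2 CPM before and at 39.9, 48.4 and 44.1 CPM after differentiation, with no overlap, a 1.96-fold drop (log2 fold change -0.97 ± 0.077 SE, edgeR adjusted p = 4.86e-12). Per 100 Trp53 reads it had 64.0 to 64.5 reads in undifferentiated and 56.0 to 68.3 reads in differentiated libraries, so the ratio of the 2 genes overlapped between groups.

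Zmat3 and Phlda3 sat at the edge of the test. Zmat3, an RNA-binding protein that acts on the stability and splicing of mRNAs (ENSMUSG00000027663, chr3:32334792-32366014, minus strand), was at 62.3, 57.0 and 57.3 CPM and at 70.8, 65.2 and 60.6 CPM, groups that overlap. At a log2 fold change of 0.16 ± 0.071 (SE), or 1.12-fold, the rise was called (edgeR adjusted p = 0.0429), but not with RLE factors, DESeq2 or the replicate number as a block, nor without undifferentiated replicate 2 (edgeR adjusted p = 0.148) or 3 (0.125), or without dexamethasone replicate 1 (0.204) or 2 (0.063). Phlda3, which competes with the kinase Akt for membrane lipids (ENSMUSG00000041801, chr1:135766119-135769136, plus strand), had 47.1, 46.0 and 41.6 CPM and then 29.7, 44.3 and 42.6 CPM. Dexamethasone replicate 1 was the low library, and the other 2 differentiated libraries lay within the undifferentiated range. The log2 fold change was -0.22 (95% interval -0.43 to -0.0045 before adjustment, edgeR adjusted p = 0.0574). Its value moved from -0.05 without dexamethasone replicate 1 to -0.33 without dexamethasone replicate 2, and it passed the threshold without dexamethasone replicate 2 (edgeR adjusted p = 0.0107) or 3 (0.0307) and without undifferentiated replicate 3 (0.0433). It also passed with RLE factors (edgeR adjusted p = 0.0481) and with limma voom (limma adjusted p = 0.044).

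Perp, a membrane protein of desmosomes and of p53-linked cell death (ENSMUSG00000019851, chr10:18845020-18857073, plus strand), was close to the limit of detection. It had 4, 1 and 1 reads in undifferentiated and 6, 9 and 2 reads in differentiated libraries, where 3 reads correspond to 0.343 to 0.468 CPM. The groups overlapped and the gene was left out of the test by the filter on low counts. A difference was not detectable at this depth.

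**Figure D3:**
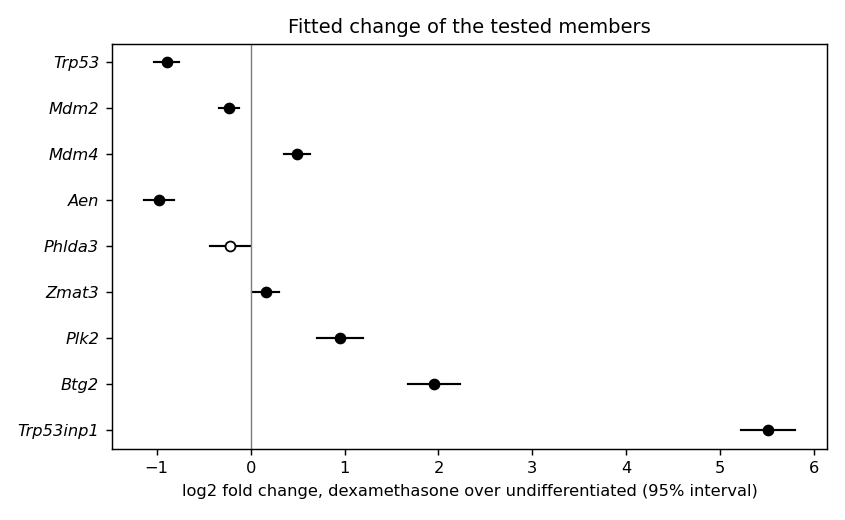
Fitted log2 fold change of the 9 tested genes with 95% intervals; filled points were called, the open point (Phlda3) was not. Values run from -0.97 (Aen) to 5.51 (Trp53inp1), and Mdm2, Phlda3 and Zmat3 lie within 0.23 of 0.

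Per kilobase of exon (RPKM, TMM-scaled), the order of the levels also differed between the groups. The length used is that of all annotated exons merged, such as 14798 bases for Mdm4 and 1559 for Phlda3. It need not be the length of the transcripts made, so places between genes depend on the annotation. In undifferentiated cells Mdm2 (37.9 ± 1.35 RPKM, SD, n = 3) stood first, ahead of Trp53 (33.3 ± 2.58), Phlda3 (28.8 ± 1.86) and Aen (14.9 ± 1.22), and Zmat3, Mdm4, Plk2 and Btg2 followed at 5.15 to 2.12 RPKM. The libraries of each of these neighbours lay apart. Trp53inp1 (0.227 ± 0.0280 RPKM) and Perp (0.146 ± 0.124 RPKM) came last and their libraries overlapped. In differentiated cells Mdm2 again stood first (32.4 ± 0.289 RPKM, SD, n = 3). Phlda3 (24.9 ± 5.12) and Trp53 (18.0 ± 1.26) came next with overlapping libraries, and Trp53inp1 had moved up to the fourth place (10.4 ± 0.485 RPKM). Btg2, Aen, Plk2, Zmat3 and Mdm4, at 8.24 to 5.72 RPKM, followed, and the libraries of each neighbouring pair among them overlapped.

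The 10 genes lie on 7 chromosomes. Mdm4, Btg2 and Phlda3 share a stretch of 2.81 Mb on chromosome 1, in which Mdm4 and Btg2 rose and Phlda3 was not called, and Mdm2 and Perp both lie on chromosome 10. No exon of the 10 genes overlaps an exon of another annotated gene on either strand, so their counts were not shared with a neighbour.

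Further known p53 targets were also divided. Of 36 genes on that list 31 were tested, and 16 were called higher and 8 lower (backgrounds 40.3% and 38.6% of all tested genes), with a median log2 fold change of 0.42. Among those called higher, Eda2r, Trp53cor1, Trp53i11 and Dcxr had 3, 2, 18 and 19 reads over the undifferentiated libraries. They passed the filter on low counts only through the differentiated libraries, which adds to the count called higher. Cdkn1a, the cell cycle inhibitor p21 (chr17, printed above), rose 3.89-fold, from 21.5 ± 1.37 to 83.7 ± 6.82 CPM (SD, n = 3, edgeR adjusted p = 8.22e-18). Ephx1, an epoxide hydrolase, rose 10.5-fold, Gadd45a, a growth arrest and DNA damage gene, 11.6-fold, and Sesn2, a sestrin that restrains mTORC1, 3.91-fold. Ckap2, a spindle protein, fell 6.77-fold, Rps27l, a ribosomal protein S27 homologue, 2.56-fold, Pidd1, a scaffold of caspase activation, 4.85-fold, and Bax, which opens the outer mitochondrial membrane, 1.67-fold. Bbc3, the cell death gene Puma, was higher at 32.5 against 10.4 mean CPM and is named, like the next 2 genes, after its value was seen. Eda2r, a receptor of the tumour necrosis factor family, had 3 reads over the undifferentiated and 101 over the differentiated libraries, a ratio of scaled reads of 28.5 (95% counting interval 9.47 to 140). Trp53cor1, the noncoding RNA lincRNA-p21, had 2 and 87 reads, a ratio of 36.8 (9.89 to 309), where such intervals cover counting error only.

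Several targets of that list did not pass the test. Ccng1, cyclin G1, was at 72.8 and 74.7 mean CPM, Ppm1d, the phosphatase Wip1 that resets the response, at 28.0 and 26.7, and Fdxr at 25.8 and 25.4. Ercc5, Fbxw7, Triap1 and Trp53i13 were also not called, with log2 fold changes of -0.06 to 0.21. Pmaip1, Fas, Tnfrsf10b, Dram1 and Spata18 had too few reads to test, and the first and the last had none.

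Genes that act on p53 or Mdm2 were called lower more often than higher. Of 27 tested, 5 were called higher and 19 lower (backgrounds 40.3% and 38.6% of all tested genes), with a median log2 fold change of -0.32. Chek1, a checkpoint kinase of DNA replication, fell 8.73-fold, the lysine methyltransferase gene Kmt5a 1.85-fold, the chromatin reader gene Ing1 1.90-fold and Usp7, the deubiquitinase of Mdm2 and p53, 1.69-fold. Cdkn2a, which encodes p16 and the Mdm2 inhibitor Arf, rose 1.46-fold, from 72.9 ± 5.96 to 107 ± 7.70 CPM (SD, n = 3), and gene counts do not tell the 2 products apart. Ppp1r13b and Ppp1r13l, members of the family of p53-binding ASPP proteins, rose 1.76-fold and 1.80-fold, and Rpl23 rose 1.16-fold. The other ribosomal protein genes of this list were divided: Rpl11 fell 1.42-fold with no overlap, and Rpl5 rose 1.10-fold with overlapping groups. Ribosomal protein genes have near-identical pseudogenes, reads that align to several places were not counted, and the effect of this on Rpl23, Rpl11 and Rpl5 was not tested. Hipk2, Rchy1 and Trp53bp2 were not called. The cell division markers, which fell in 6 of 6 cases, moved with Chek1 and Ckap2, and their part in these drops was not tested.

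Relatives of the genes showed unlike changes within a family. Of 21 paralogs 15 were tested, with 7 called higher and 7 lower (46.7% each, near the backgrounds of 40.3% and 38.6%) and a median log2 fold change of 0.05. Trp53inp2, the relative of Trp53inp1, rose 4.46-fold and was at 250.7 mean CPM in differentiated cells. Btg1, a relative of Btg2, rose 2.52-fold while Btg3 fell 1.90-fold. Plk3 rose 2.17-fold, and Plk1, the mitotic polo-like kinase, fell 23.1-fold. Phlda1 fell 2.78-fold. Isg20, of the same exonuclease family as Aen, rose 13.4-fold from 12 to 194 reads per group, and Isg20l2 fell 1.76-fold. Isg20 and Zmat1, which was also called higher from 33 to 145 reads per group, passed the filter on low counts only through the differentiated libraries. This adds to the count called higher. Tob2 was not called. Trp63 and Trp73, the other members of the p53 family, had 1 read each over all 6 libraries. Plk4 (2 reads), Plk5, Zmat4 and Tmem47 (none) also had too few reads to test.

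**Figure D4:**
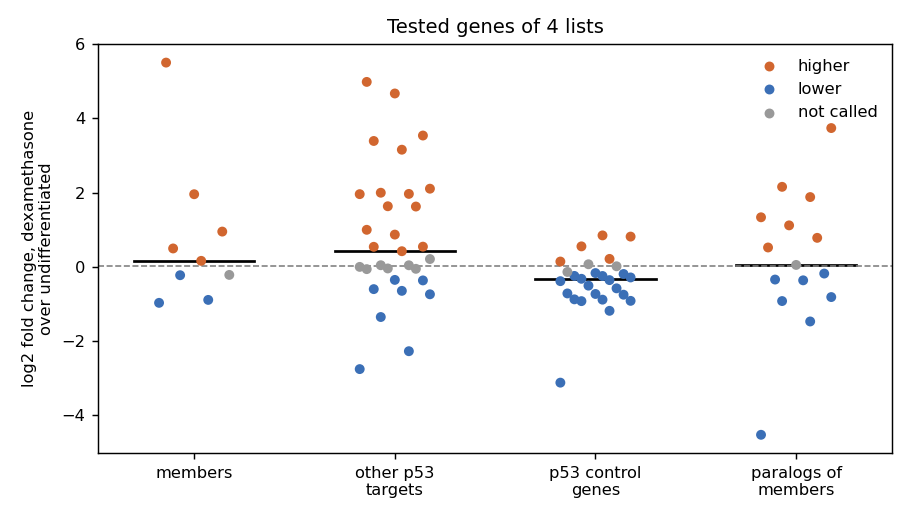
Fitted log2 fold change of each tested gene of the 4 lists, coloured by call; black bars are list medians and the dashed line is the median of all tested genes. Medians are 0.16, 0.42, -0.32 and 0.05 from left to right, beside 0.02 for all genes.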

How the data were processed

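Gene expression was measured by mRNA sequencing of 6 libraries. The deposited values are raw read counts per gene. Per the file headers, the authors counted with featureCounts 1.6.4 over exons of Ensembl release 96 (GRCm38), strand setting 1, without options for multi-mapping or multi-overlapping reads, so reads shared by near-identical copies were not split. Per the submitters' processing notes, the named tools were HISAT2 2.2.0 and Trim Galore 0.6.4, besides Subread 1.6.4, FastQC 0.11.9 and DESeq2, and the build was GRCm38.p6.

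All 55536 identifiers matched GENCODE M21 with the same start and end. Groups came from the sample titles. Genes were kept by filterByExpr (minimum count 10, minimum total 15), scaled by TMM and tested over the whole table with edgeR 4.0.16 (quasi-likelihood, R 4.3.3), with group as the only term; the 12664 tested genes held 99.8% of reads. The test was checked on counts simulated from its own fitted model with few genes changed. That check does not cover data in which most genes change. A gene low in 1 group could pass the filter on low counts through the other group alone. CPM and RPKM were computed here from the deposited counts. DESeq2 1.42.0 and limma 3.58.1 (voom) were alternatives, beside other scalings and filters, a block, a fold threshold and each library left out.

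The genes and lists were chosen with earlier results of these data known. Of each further list, up to 4 called genes per direction are named, beside uncalled and untested ones. The called ones are those with the smallest adjusted p and at least 1 CPM in a group. Further called genes were named outside this rule, for the filter on low counts, beside a related gene or after their values were seen.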

Additional observations from a re-analysis of the deposited data

How the results depend on the processing

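With edgeR's test against a fold of 1.5, 2853 of all 12664 tested genes were called higher (22.5%) and 2316 lower (18.3%). On that test 3 of the 9 tested genes of the p53 set were called higher (Trp53inp1, Btg2 and Plk2) and 2 lower (Trp53 and Aen). Of 31 tested other p53 targets, 13 were higher and 4 lower. Of 27 p53 control genes, 1 was higher and 8 were lower, and of 15 tested paralogs 6 were higher and 4 lower. Trp53, Trp53inp1, Aen, Plk2 and Btg2 kept their direction and call under all 14 alternatives, and none of the 9 tested genes changed sign under them. Leaving out each library in turn gave 4 to 5 genes called higher and 3 to 4 lower. Mdm4 lost its call only on the 1.5-fold test, Mdm2 on that test and with library totals alone. Zmat3 (log2 fold change 0.10 to 0.28, adjusted p 7.4e-04 to 0.204 outside the 1.5-fold test) and Phlda3 (-0.33 to -0.05, 0.0107 to 0.614) depended on the setting, and the cause was not tested. With library totals alone, 58.0% of called genes were higher, against 51.1% with TMM.

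With the replicate number as a block, 5018 genes were called higher and 4803 lower, and Zmat3 was no longer called (edgeR adjusted p = 0.0581). Deviations of same-numbered libraries correlated at -0.0947, 0.0357 and -0.0710, and not every library correlated best with its own number, so the numbers are not taken as pairs. For Perp the run without a filter gave a log2 fold change of 1.22 (edgeR adjusted p = 0.173). Without each library in turn, the difference in mean log2 ratio was 0.57 to 0.72 for Mdm2 to Trp53 and -0.74 to -0.68 for Mdm2 to Mdm4.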
